A study of Homo sapiens with 6 samples.

Results

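AP-1 is a family of transcription factors that bind DNA as pairs of leucine zipper proteins. JUN proteins can pair with one another or with FOS proteins, whereas FOS proteins need a JUN partner, and BATF and MAF proteins join the same network through the same kind of zipper. Many members are immediate early genes, which are switched on within minutes of growth factor signalling through MAP kinases, and FRA1, the protein of FOSL1, is known as a late and long-lived product of ERK signalling that is abundant in mesenchymal-type breast cancer cells. The 10 genes described here were taken by name: FOS, FOSB, FOSL1 and FOSL2 of the FOS subfamily, JUN, JUNB and JUND of the JUN subfamily, BATF and BATF3, and MAFF, a small MAF protein. All 10 were among the 56505 rows of the deposited count table, and 8 of them passed the filter on low counts that left 19567 genes. JUNB and FOSB had a count of 0 in every library.

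RNA was sequenced from cells labelled as MDA-MB-468, an established human cell line from a breast cancer without hormone receptors or HER2 amplification, grown in medium with serum. The libraries comprised 3 with a hairpin against cytokeratin 5 (shCK5-22 in the labels, shCK5 here) and 3 with a control hairpin (pLK0-shControl, shControl here), with no further treatment in either group. A single knockdown hairpin was sequenced, and the labels do not say whether replicates were separate cultures. A p-value therefore reflects no more than the scatter among these 6 libraries, which may be technical. Total counts lay between 75460940 and 83594772 in shCK5 and between 68810882 and 75529699 in shControl.

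The labels were checked on a few genes. KRT5, the target of the hairpin, was at 17.21, 15.53 and 16.52 CPM (counts scaled to library size) in shCK5 replicates 1, 2 and 3, against 2056, 2060 and 2017 CPM in shControl. RB1 and SMAD4, which are known to be deleted in MDA-MB-468, had 101.0 ± 2.16 and 16.86 ± 0.547 CPM in shCK5, against 1.996 ± 0.136 and 0.2346 ± 0.138 CPM in shControl (SD, n = 3 each). EGFR, which is amplified in this line, had 734.6 ± 12.1 CPM in shCK5 and 2895 ± 44.3 CPM in shControl. An effect of the hairpin and a difference in the identity of the cells cannot be told apart here, and all differences below are between libraries as labelled. Of 10 leukocyte, 10 fibroblast and 10 endothelial markers, 4, 2 and 0 had no count in any library. Summed levels were 1.39 to 1.814 CPM in shCK5 and 5.804 to 7.087 CPM in shControl for leukocyte markers, 12.28 to 14.41 and 19.19 to 20.23 CPM for fibroblast markers, and 6.557 to 7.709 and 7.184 to 8.709 CPM for endothelial markers. PTPRC, the general leukocyte marker, had a mean of 0.06228 CPM in shCK5 and 0.6972 CPM in shControl. The part of these levels in the AP-1 results was not tested.

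The family members are related in sequence but shared only short identical runs in the transcripts compared. The stretch of 63 coding bases that was most alike within each subfamily is printed below for every FOS and JUN gene, to show how far the paralogs differ in their best conserved part. In the JUN genes it lies in the DNA-contacting basic region, and in the FOS genes it runs from the end of that region towards the leucine zipper. Sequences are 5′ to 3′ from GENCODE v29 transcripts, and capitals mark bases that differ from FOSL1 in the FOS genes or from JUN in the JUN genes.
FOSL1: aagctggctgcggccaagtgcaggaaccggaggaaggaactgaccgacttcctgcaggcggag
FOSL2: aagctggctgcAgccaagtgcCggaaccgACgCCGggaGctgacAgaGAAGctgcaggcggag
FOS: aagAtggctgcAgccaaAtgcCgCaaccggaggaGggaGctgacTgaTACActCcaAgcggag
FOSB: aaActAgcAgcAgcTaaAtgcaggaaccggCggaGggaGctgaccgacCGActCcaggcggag
JUN: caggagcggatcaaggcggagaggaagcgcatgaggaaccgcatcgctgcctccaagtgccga
JUND: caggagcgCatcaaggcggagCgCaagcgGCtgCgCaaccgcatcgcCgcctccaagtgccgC
JUNB: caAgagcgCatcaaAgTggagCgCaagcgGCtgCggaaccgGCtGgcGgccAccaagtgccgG
FOSL2, FOS and FOSB were 79.4%, 77.8% and 79.4% identical to FOSL1 over this stretch, and JUND and JUNB were 85.7% and 76.2% identical to JUN. Over the 45 pairs of the 10 genes, with a single GENCODE v29 transcript for each, the longest identical run was 21 bases, between FOSL1 and MAFF. Transcripts were compared in the sense direction, and exonic bases outside them were not compared.

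Upstream of the genes, 3 short motifs were searched on both strands of RefSeq promoter windows (GRCh38.p14). These were the AP-1 site TGACTCA, the cAMP response element TGACGTCA, and TGACATCA, the variant through which JUN is known to act on its own promoter. They were present in 4.95%, 1.85% and 2.61% of 35116 windows, and no letters of one motif hold another. Windows were given for 8 of the 10 genes, with none for FOSL1 or BATF3 and 2 for MAFF. The AP-1 site was found in FOSL2, 4 bases after the RefSeq start, which lies inside the span of the gene in GENCODE v29. The sites of JUN and JUND are shown, with MAFF beside them, because JUN and JUND differed in opposite directions between the groups. Capitals mark the motif.
JUN: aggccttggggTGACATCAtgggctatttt
JUND: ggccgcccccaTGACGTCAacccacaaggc
MAFF: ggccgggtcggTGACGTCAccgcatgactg
The JUN stretch is chr1:58784096-58784125 on the minus strand, with the motif beginning 67 bases before the RefSeq start. GENCODE v29 starts the single exon of JUN farther upstream, at position 58784327, so the stretch falls inside that exon. The JUND stretch is chr19:18281804-18281833 on the minus strand, 200 bases before the start, and the MAFF stretch is chr22:38201929-38201958 on the plus strand, 54 bases before one of its starts. The MAFF stretch also falls inside the span of its gene in GENCODE v29, which begins at 38200767. A match is a description of these letters and says nothing of binding. Its link to the differences between the groups was not tested.

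FOSL1 was the member with the largest increase. The gene (ENSG00000175592.8, chromosome 11, 65892049 to 65900573, minus strand, GRCh38 coordinates of GENCODE v29, protein-coding) encodes FRA1, a FOS protein without the strong activation domain of FOS itself. Its level was 767.2, 783.3 and 725.8 CPM in shCK5, against 30.24, 30.97 and 26.62 CPM in shControl. Every shCK5 library stood far above every shControl library, and the spread within a group was small beside the gap. FOSL1 was 25.9-fold higher in shCK5 (log2 fold change 4.69, SE 0.0432; edgeR's quasi-likelihood test, Benjamini-Hochberg adjusted p = 1.09e-30). A second test, edgeR's glmTreat, asks whether a change exceeds 2-fold, and FOSL1 passed it (adjusted p = 1.84e-29). In bulk RNA, fewer cells with the transcript and less transcript per cell cannot be told apart, here and for every gene below.

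These calls have to be read against the whole transcriptome, in which most genes differed. The ordinary test called 82.7% of all genes tested, 40.9% higher and 41.7% lower in shCK5. The test beyond 2-fold called 36.9%, 16.4% higher and 20.4% lower. Of the 8 members tested, 7 passed the ordinary test, 5 higher (FOSL1, FOSL2, JUN, BATF3 and MAFF) and 2 lower (JUND and BATF). Beyond 2-fold, 3 were higher (FOSL1, BATF3 and MAFF) and 1 lower (BATF). The groups did not overlap in 7 of the 8, 5 higher and 2 lower, beside 84.2% of all genes, 41.6% higher and 42.6% lower. The share of members that differed was thus close to the background in the ordinary test. By size, a log2 fold change at least as large as that of FOSL1 in either direction was found in 6.26% of genes and as large as that of BATF in 4.9%. For JUN, JUND, MAFF and FOSL2, in contrast, 41.8% to 50.3% of genes changed by at least as much. The median log2 fold change was 0.91 over the 8 members and -0.02 over all genes.

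**Figure D1:**
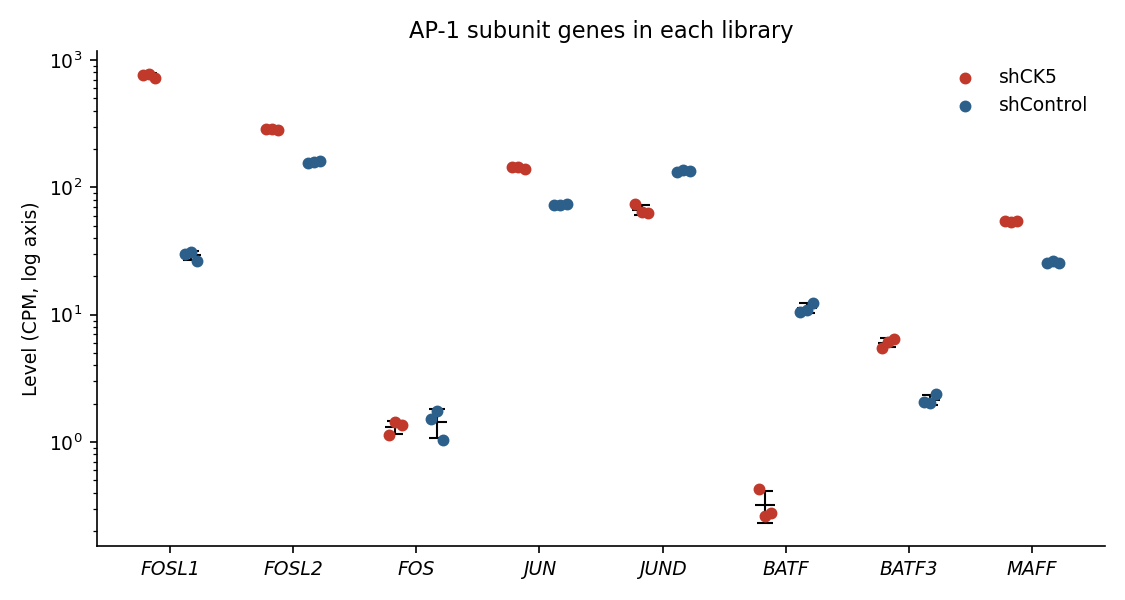
Level of the 8 AP-1 genes with counts, in CPM on a log axis, in each shCK5 library (red, left of each pair) and shControl library (blue, right), with mean and SD in black (n = 3 each). The points of the groups are apart for every gene but FOS. FOSL1 lies near 759 CPM in shCK5 and near 29.3 CPM in shControl, and BATF near 0.322 and 11.3 CPM.

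**Figure D2:**
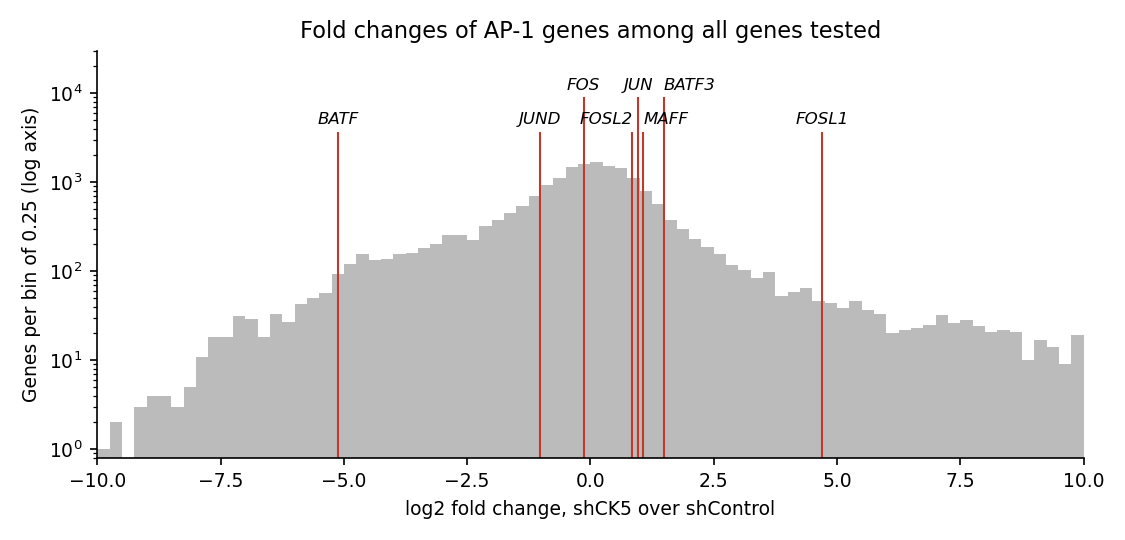
Histogram of log2 fold changes of shCK5 over shControl for the genes tested (grey, log axis of gene number, bins of 0.25), with red lines at the 8 AP-1 genes. FOSL1 and BATF lie in opposite tails, and the others near the centre. Beyond the axis limits lie 79 genes above 10 and 3 below -10.

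FOSL2, which encodes the related FRA2, was also higher, by less. The gene lies on chromosome 2 (ENSG00000075426.11, 28392448 to 28417312, plus strand). It had 286.3, 288.7 and 281.7 CPM in shCK5, against 156.8, 159.2 and 160.6 CPM in shControl. The groups were well apart, and the increase was 1.8-fold (log2 fold change 0.85, SE 0.0263; edgeR adjusted p = 6.29e-20). It did not pass the test beyond 2-fold (adjusted p = 1). The first exonic part of FOSL2 lies under the antisense gene FLJ31356, so that 84.7% of its exonic bases are free of other gene spans. FLJ31356 itself had 0.5475 ± 0.0935 CPM in shCK5 and 0.7738 ± 0.129 CPM in shControl (SD, n = 3 each).

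FOS, the founding member of the family and the textbook immediate early gene, was scarcely detected. The gene lies on chromosome 14 (ENSG00000170345.9, 75278774 to 75282230, plus strand). It had 90, 110 and 98 counts in shCK5 and 114, 140 and 74 counts in shControl, or 1.134, 1.443 and 1.355 CPM against 1.53, 1.755 and 1.031 CPM. The shControl libraries included both the highest and the lowest value, so the groups overlapped. The log2 fold change was -0.14 (SE 0.202, 95% interval -0.54 to 0.25; edgeR adjusted p = 0.521), and its sign turned to 0.03 without shControl replicate 2. A decrease of the size seen for JUND therefore lies outside the interval of FOS.

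Within the FOS subfamily, FOSL1 was the most abundant transcript per length in shCK5 and FOSL2 in shControl. Levels were compared between genes as RPKM, the CPM divided by the exon length in kb. FOSL1 had 402.1 ± 15.7 RPKM in shCK5 and 15.51 ± 1.23 RPKM in shControl, FOSL2 39.9 ± 0.497 and 22.19 ± 0.265 RPKM, and FOS 0.4047 ± 0.0492 and 0.4444 ± 0.114 RPKM (SD, n = 3 each). Of the summed RPKM of these 3 genes, FOSL1 made up 90.97%, 91.06% and 90.63% in the shCK5 libraries, against 41.73%, 41.87% and 38.27% in the shControl libraries. The groups did not overlap, and the two-sided exact permutation p was 0.1, the smallest that 3 libraries against 3 can give. FOSL2 made up 9.024 ± 0.222% in shCK5 and 58.22 ± 2.3% in shControl. With lengths that leave out exons under other genes, the share of FOSL1 was 89.42% in shCK5 and 36.75% in shControl. FOSB is missing from these shares. The log2 ratio of FOSL1 to FOSL2 on the CPM scale was 1.41 ± 0.0389 in shCK5 and -2.44 ± 0.13 in shControl, and that of FOSL1 to FOS was 9.17 ± 0.188 and 4.37 ± 0.279. Both differences, 3.85 and 4.80, had an exact p of 0.1 (adjusted p = 0.1 over 4 ratios).

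JUN and JUND moved in opposite directions. JUN, the classical partner of FOS proteins, is a gene of a single exon on chromosome 1 (ENSG00000177606.6, 58780788 to 58784327, minus strand). It had 144.3, 144.9 and 139.9 CPM in shCK5, against 72.94, 72.39 and 74.19 CPM in shControl. All shCK5 libraries were above all shControl libraries, a 1.95-fold increase (log2 fold change 0.97, SE 0.0294; edgeR adjusted p = 3.93e-20). JUND, a JUN protein whose gene is known to be expressed more constantly than JUN, is also a gene of a single exon, on chromosome 19 (ENSG00000130522.5, 18279760 to 18281622, minus strand). It had 73.62, 64.0 and 62.81 CPM in shCK5, against 132.6, 137.4 and 135.6 CPM in shControl, and the groups were again apart. The log2 fold change was -1.02 (SE 0.0416; edgeR adjusted p = 2.14e-17). Neither gene passed the test beyond 2-fold (adjusted p = 1 for JUN and 0.356 for JUND), although JUND passed it without shCK5 replicate 1 (adjusted p = 0.0102).

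Per length, JUN and JUND were at similar levels in shCK5. JUN had 40.4 ± 0.773 RPKM in shCK5 and 20.67 ± 0.261 RPKM in shControl, and JUND 35.86 ± 3.18 and 72.57 ± 1.3 RPKM (SD, n = 3 each). JUN made up 50.77%, 54.37% and 53.96% of their sum in the shCK5 libraries, against 22.45%, 21.71% and 22.35% in the shControl libraries (exact permutation p = 0.1). The log2 ratio of JUN to JUND on the CPM scale was 1.10 ± 0.114 in shCK5 and -0.89 ± 0.0338 in shControl, a difference of 1.99 (exact p = 0.1, adjusted p = 0.1 over 4 ratios). Summed over the measured genes of each subfamily, FOS transcripts exceeded JUN transcripts 5.57 to 6.06 times in shCK5 libraries, whereas the ratio was 0.393 to 0.419 in shControl libraries. JUNB is missing from these sums, so the ratio compares only the genes with counts.

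**Figure D3:**
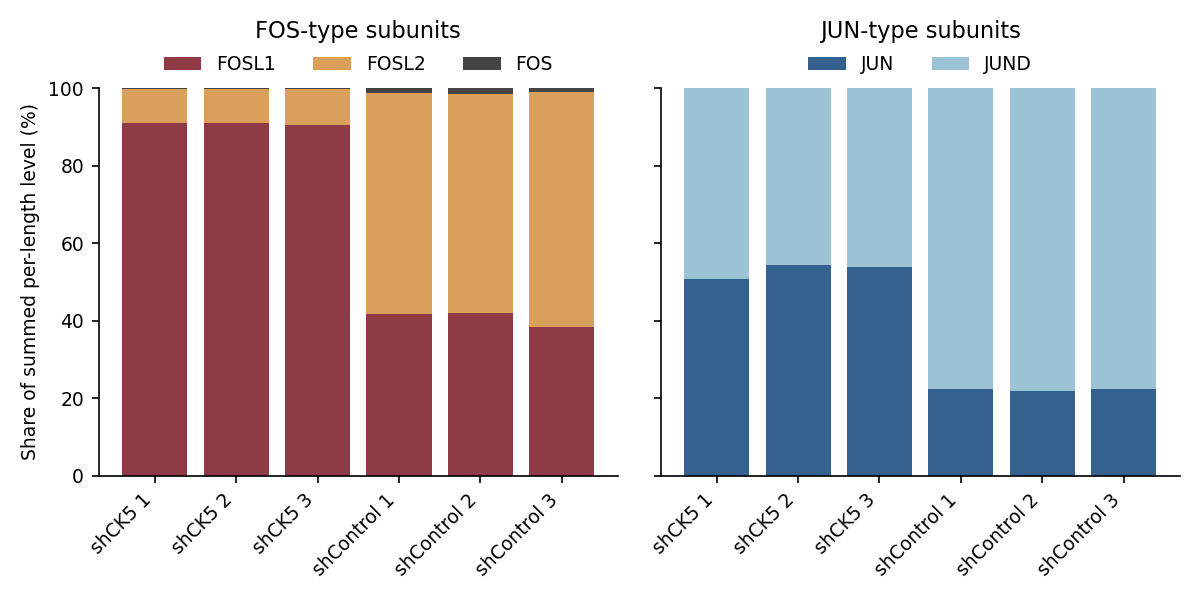
Share in percent of each measured gene in the summed per-length level (RPKM) of the FOS genes (left) and the JUN genes (right), 1 bar per library, shCK5 left of shControl. FOSL1 fills 90.63% to 91.06% of the FOS bars in shCK5 and 38.27% to 41.87% in shControl, and JUN 50.77% to 54.37% and 21.71% to 22.45% of the JUN bars.

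BATF showed the largest decrease and BATF3 an increase. BATF and BATF3 are small proteins with a zipper but no activation domain of their own, known chiefly from lymphocytes and dendritic cells, which pair with JUN proteins. BATF (ENSG00000156127.6, chromosome 14, 75522425 to 75547015, plus strand) had 34, 20 and 20 counts in shCK5 against 782, 874 and 894 counts in shControl, or 0.4283, 0.2623 and 0.2765 CPM against 10.5, 10.96 and 12.46 CPM. No shCK5 library came near the shControl libraries, and the log2 fold change was -5.12 (SE 0.146; edgeR adjusted p = 1.04e-20, and 6.12e-19 for a change beyond 2-fold). BATF3 (ENSG00000123685.8, chromosome 1, 212686418 to 212699985, minus strand) had 5.517, 6.151 and 6.457 CPM in shCK5, against 2.067, 2.031 and 2.369 CPM in shControl. All shCK5 values were higher, by 2.8-fold (log2 fold change 1.49, SE 0.113; edgeR adjusted p = 7.77e-12, and 8.1e-05 beyond 2-fold). The log2 ratio of BATF to BATF3 was -4.22 ± 0.486 in shCK5 and 2.38 ± 0.0438 in shControl (difference -6.60, exact p = 0.1, adjusted p = 0.1 over 4 ratios). With a pseudocount of 0.5 CPM in place of 0.01, the difference was -5.15. CD14, a monocyte marker, had 0.7977 ± 0.217 CPM in shCK5 and 5.019 ± 0.676 CPM in shControl (edgeR adjusted p = 1.9e-13). Of the 3 leukocyte markers tested, 2 fell. ITGAM did not pass, with 0.6071 CPM in shCK5 and 0.6601 CPM in shControl (edgeR adjusted p = 0.698). LYZ, below the filter, had 14 counts in shCK5 and 2 in shControl. A link of these markers to BATF was not tested.

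MAFF, a small MAF protein that lacks an activation domain and pairs with itself or with larger zipper proteins such as NRF2, rose about as much as JUN. The gene lies on chromosome 22 (ENSG00000185022.11, 38200767 to 38216511, plus strand). It had 54.47, 53.59 and 54.39 CPM in shCK5, against 25.37, 26.31 and 25.43 CPM in shControl. The groups were apart by far more than their spread (2.11-fold, log2 fold change 1.07, SE 0.0385; edgeR adjusted p = 1.31e-18). It passed the test beyond 2-fold (adjusted p = 0.0241) but not without shControl replicate 1 (0.05 after rounding) or without shControl replicate 3 (0.0585), nor when libraries were scaled by size alone. Its first part lies under PLA2G6 on the other strand, and 41.5% of its exonic bases are free of other gene spans. PLA2G6 had 3.324 ± 0.546 CPM in shCK5 and 7.041 ± 0.388 CPM in shControl.

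Per length, the order of the measured genes differed between the groups. In shCK5 it was FOSL1, JUN, FOSL2, JUND, MAFF, BATF3, FOS and BATF. JUN and FOSL2 had overlapping ranges of RPKM, as had FOSL2 and JUND, and FOS and BATF. In shControl the order was JUND, FOSL2, JUN, FOSL1, BATF, MAFF, BATF3 and FOS, and no neighbours overlapped there. MAFF, at 9.644 RPKM in shCK5 and 4.578 RPKM in shControl, would be at 23.23 and 11.03 RPKM by its free exonic length, the second of which is close to the 11.53 RPKM of BATF. FOSL2 would be at 47.12 RPKM in shCK5 and 26.21 RPKM in shControl, which puts it above JUN in shCK5.

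JUNB and FOSB cannot be judged from this table. JUNB, a JUN protein of early responses and mitosis, lies on chromosome 19 (12791496 to 12793315, plus strand). It is inside the span that GENCODE v29 gives to HOOK2 on the minus strand (12763003 to 12872740). JUNB shares 259 exonic bases with HOOK2, 14.23% of its own. FOSB, the FOS protein known for its long-lived short form in brain, lies on the same chromosome (45467995 to 45475179, plus strand) inside the span of ERCC1 (45407333 to 45478828, minus strand), with which it shares no exonic base. Of 1452 protein-coding genes that lie wholly inside another gene, 1372 (94.5%) had no count in any library, against 552 of 10520 (5.25%) that overlap one in part and 896 of 6935 (12.9%) that overlap none. PRDX2 and RNASEH2A, which are also inside the HOOK2 span, had no count either, and PRDX2 encodes a peroxiredoxin that is abundant in most cells. HOOK2 itself had 21.25 ± 0.707 CPM in shCK5 and 133.4 ± 1.64 CPM in shControl, and ERCC1 63.04 ± 0.897 and 49.9 ± 1.13 CPM (SD, n = 3 each). Which annotation the authors counted against is not stated in the labels, so the counts of 0 are reported as listed and are given no upper limit.

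**Figure D4:**
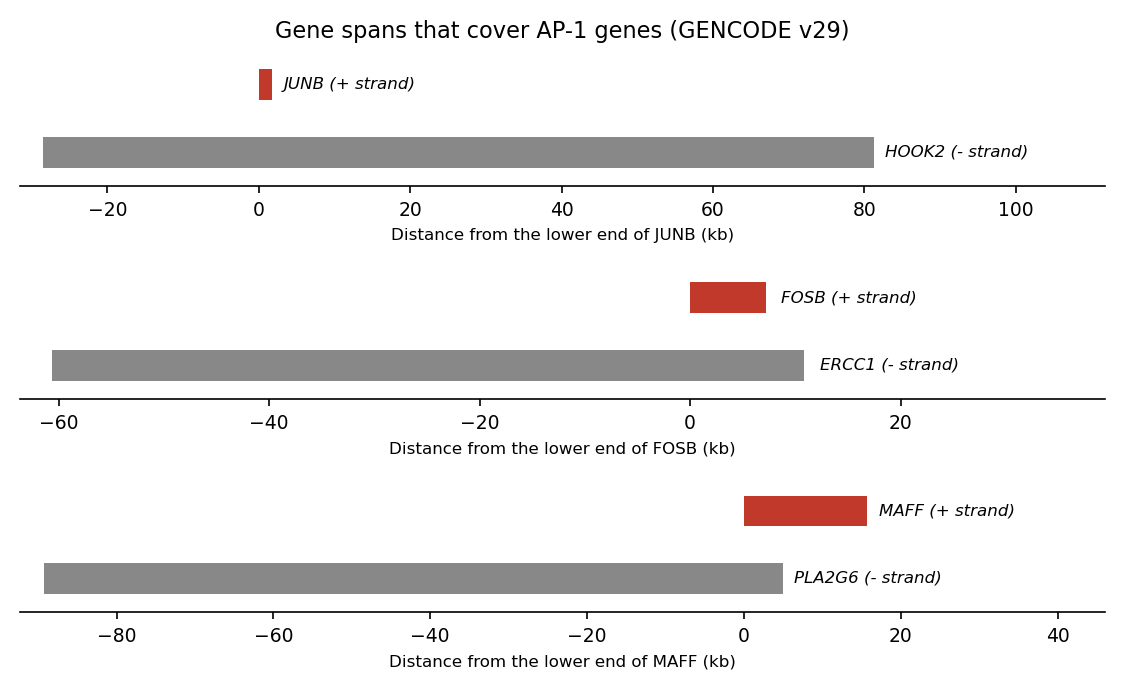
Spans of JUNB, FOSB and MAFF (red) and of the gene on the other strand that covers them (grey), against distance in kb from the lower coordinate of the AP-1 gene. HOOK2 and ERCC1 cover JUNB and FOSB wholly, and PLA2G6 covers the first part of MAFF.

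Other zipper proteins that share dimers with AP-1 moved both ways. Of 29 listed, 25 were tested, 12 rose, 11 fell and 2 were not called, the median log2 fold change being 0.11. Over all genes tested, 40.9% were higher and 41.7% lower. Beyond 2-fold, 4 of the list rose and 7 fell, beside 16.4% and 20.4% of all genes. NFE2L3, a larger partner of small MAF proteins, rose to 258.9 ± 8.04 CPM in shCK5, against 40.57 ± 2.24 CPM in shControl, and BACH2, a repressor that also pairs with small MAFs, to 6.287 ± 0.248 against 1.81 ± 0.104 CPM. BATF2, the third BATF gene, had 1.064 ± 0.0939 CPM in shCK5 and 0.2583 ± 0.0662 CPM in shControl (log2 fold change 2.04, SE 0.286; edgeR adjusted p = 4.91e-07). CEBPA fell to 0.06124 ± 0.0538 CPM in shCK5, against 5.222 ± 0.419 CPM in shControl. JDP2, a repressor that dimerizes with JUN proteins, fell to 7 ± 0.786 CPM in shCK5, against 36.57 ± 2.18 CPM in shControl (SD, n = 3 each). ATF5 and NFE2 had no count, and both lie inside another gene.

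On chromosome 14, FOS, JDP2 and BATF lie in this order on the plus strand, with JDP2 at 75427716 to 75474111. They are not all adjacent, as LINC01220 lies between FOS and JDP2. The log2 fold changes of FOS, JDP2 and BATF were -0.14, -2.38 (SE 0.0663) and -5.12. ATF3, an early response factor that pairs with JUN, lies on chromosome 1 (212565334 to 212620777), near BATF3. ATF3 had 11.16 CPM in shCK5 and 27.06 CPM in shControl, against the higher BATF3 in shCK5. Of the 3 other measured genes that start within 100 kb of FOS, none had more than 0.02625 CPM as its mean in a group.

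Around FOSL1, genes within 100 kb differed by less than FOSL1 itself. On the CPM scale, C11orf68 was at 86.19 ± 2.51 in shCK5 and 23.53 ± 0.788 in shControl (log2 fold change 1.87), CCDC85B at 157.1 ± 5.75 and 51.87 ± 1.28 (1.60), and DRAP1, which encodes a corepressor of transcription, at 383.0 ± 11.4 and 185.9 ± 4.38 (1.04). CTSW had 0.434 ± 0.0371 CPM in shCK5 and 0.1412 ± 0.067 CPM in shControl (1.61). These 4 rose, as did MUS81 by 0.20, while SART1 and FIBP had log2 fold changes of -0.28 and -0.18 (edgeR adjusted p between 1.02e-23 and 0.00101 for these 7 genes). EFEMP2 did not pass (log2 fold change 0.42; edgeR adjusted p = 0.133). CFL1, SNX32 and TSGA10IP were below the filter. CFL1 had 17 counts summed over the shCK5 libraries and 16 over the shControl libraries. In GENCODE v29 its span (65823022 to 65862026) covers SNX32 wholly and overlaps MUS81. Whether this overlap lowered the counts was not tested, so the levels of CFL1 and SNX32 cannot be judged here.

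Upstream kinases and transcription factors rose in larger number than they fell. All 26 listed were tested, 17 rose, 7 fell and 2 were not called. Their median log2 fold change was 0.59. Beside these counts, 40.9% of all genes tested were higher and 41.7% lower. Beyond 2-fold, 8 of the list rose and 3 fell, beside 16.4% and 20.4% of all genes. Of the ELK factors, which partner SRF at early response promoters, ELK3 rose to 113.5 ± 4.07 CPM in shCK5, against 13.89 ± 0.273 CPM in shControl, and ELK1 had a log2 fold change of 1.61 and SRF of 1.40. ELK4 was not called, with 72.32 ± 1.15 CPM in shCK5 and 75.13 ± 2.59 CPM in shControl (log2 fold change -0.06, SE 0.0332; edgeR adjusted p = 0.125). MAP2K6, a kinase that activates p38, rose to 1.627 ± 0.186 CPM in shCK5, against 0.07177 ± 0.0344 CPM in shControl, and MAPK12, a p38 kinase, to 30.28 ± 1.41 against 6.57 ± 0.415 CPM. The p38 kinases went both ways: MAPK14 also rose, to 207.3 ± 2.74 CPM in shCK5 against 95.34 ± 1.3 CPM in shControl, whereas MAPK13 fell to 83.14 ± 1.49 against 171.0 ± 0.68 CPM and MAPK11 to 5.429 ± 0.234 against 8.843 ± 0.44 CPM. Of the ribosomal S6 kinases, which act downstream of ERK, 2 fell and 1 rose, RPS6KA2 falling to 12.8 ± 0.791 CPM in shCK5 against 99.13 ± 3.24 CPM in shControl and RPS6KA1 to 40.41 ± 0.935 against 89.16 ± 1.21 CPM. RPS6KA3 rose to 96.85 ± 2.41 CPM in shCK5, against 32.77 ± 1.55 CPM in shControl. MAPK10, a JNK kinase, had a log2 fold change of -1.48 (SE 0.249). MAPK3, an ERK kinase, had a log2 fold change of -0.38, and MAPK8, a JNK kinase, of 0.60.

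Other immediate early genes did not follow one direction. Of 22 listed, 19 were tested, 11 rose, 7 fell and 1 was not called. Their median log2 fold change was 0.50. Among all genes tested, 40.9% were higher and 41.7% lower. Beyond 2-fold, 4 of the list rose and 2 fell, beside 16.4% and 20.4% of all genes. KLF2 and KLF4, zinc finger factors, rose to 39.86 ± 2.98 and 70.68 ± 1.8 CPM in shCK5, against 3.116 ± 0.43 and 10.51 ± 0.481 CPM in shControl. CYR61, a secreted matrix-associated protein also called CCN1, rose to 1276 ± 54 CPM in shCK5, against 161.7 ± 2.11 CPM in shControl. EGR1, which like FOS is driven by SRF, fell to 13.53 ± 1.49 CPM in shCK5, against 30.78 ± 1.02 CPM in shControl. BTG2 and NR4A1 had log2 fold changes of -1.28 (SE 0.148) and -1.07 (SE 0.114). DUSP1 had no count and lies inside another gene.

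Genes known as AP-1 targets rose more often than they fell. Of 28 listed, 21 were tested, 13 rose, 5 fell and 3 were not called, beside 40.9% higher and 41.7% lower over all genes tested. Beyond 2-fold, 10 of the targets rose and 3 fell, beside 16.4% and 20.4% of all genes. Several of those 10 were near the floor. MMP9 had 56 counts summed over the shCK5 libraries and 12 over the shControl libraries, and PLAU 73 and 14. SERPINB2 and IL1B had 1.029 and 1.167 CPM in shCK5, against 0.3129 and 0.3894 CPM in shControl. The targets had a median log2 fold change of 0.58. The number that fell was between 4 and 8 under the alternatives, with 8 when libraries were scaled by size alone. CD44, among the 5, had a log2 fold change of -0.06 (edgeR adjusted p = 0.0249). HBEGF, an EGFR ligand, rose to 127.7 ± 1.65 CPM in shCK5, against 11.17 ± 0.457 CPM in shControl. IL1A had 1.061 ± 0.198 CPM in shCK5 and 0.151 ± 0.0439 CPM in shControl (log2 fold change 2.80, SE 0.327). CCND1, which encodes cyclin D1, had a log2 fold change of 1.77. IVL, which encodes involucrin, fell to 0.8565 ± 0.106 CPM in shCK5, against 5.321 ± 0.39 CPM in shControl, EDN1, which encodes endothelin-1, to 17.89 ± 1.24 against 110.2 ± 1.1 CPM, and the chemokine gene CXCL8 to 4.445 ± 0.577 against 15.44 ± 0.607 CPM. The collagenase and stromelysin genes MMP1, MMP3 and MMP10, the best known AP-1 targets, and TIMP1 had no count in any library. MMP1, MMP10 and TIMP1 lie wholly inside another gene, whereas MMP3 overlaps one in part. Of protein-coding genes that overlap another in part, 5.25% had no count, against 94.5% of those wholly inside. Whether MMP3 was absent or not counted was not tested.

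Genes for the turnover of AP-1 proteins and mRNAs mostly fell. All 16 listed were tested and passed, with 4 higher and 12 lower (median log2 fold change -0.22). For all genes tested, the shares were 40.9% higher and 41.7% lower. Beyond 2-fold, 1 of the list rose and 3 fell, beside 16.4% and 20.4% of all genes. TRIB1, an adaptor of the COP1 ubiquitin ligase, fell to 12.35 ± 0.57 CPM in shCK5, against 55.42 ± 0.0777 CPM in shControl. RFWD2, which encodes COP1, a ligase for JUN, had a log2 fold change of -0.76. GSK3B, a kinase that marks JUN for degradation, had a log2 fold change of -1.15 (SE 0.0302). KHSRP, a protein of AU-rich mRNA decay, rose to 675.3 ± 14.2 CPM in shCK5, against 246.8 ± 2.28 CPM in shControl, and DET1 and ELAVL1 by 0.71 and 0.60 on the log2 scale.

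**Figure D5:**
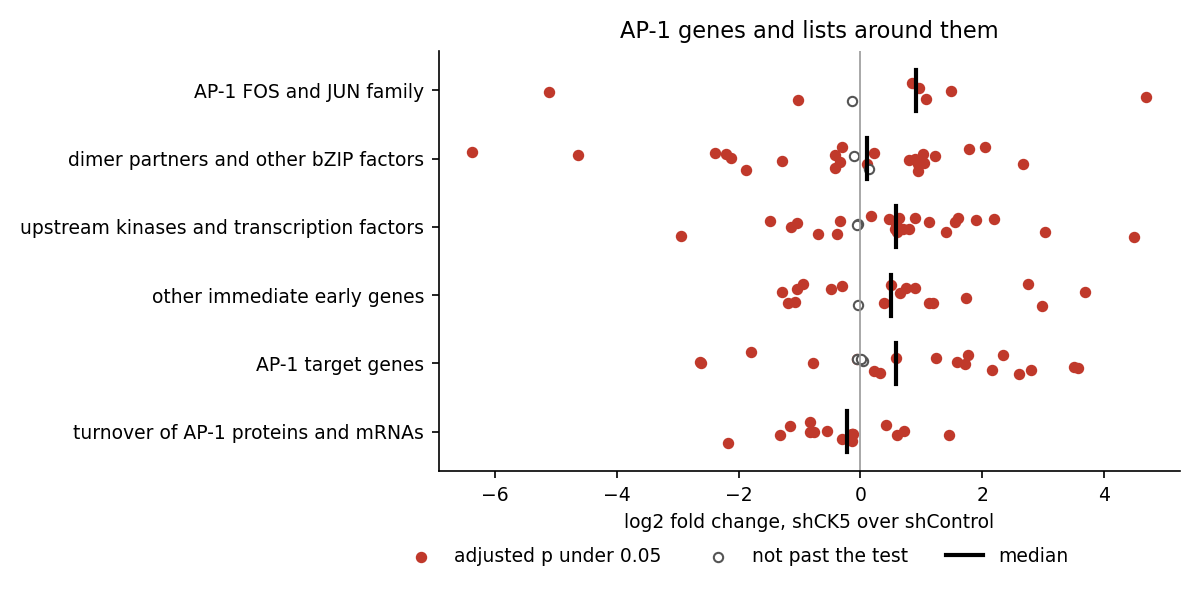
Log2 fold changes of shCK5 over shControl for the tested genes of the AP-1 family and of 5 lists around it, 1 point per gene, filled where the edgeR adjusted p was under 0.05, with the median as a black bar. Medians lie between -0.22 for turnover genes and 0.91 for the AP-1 family, whose members spread from BATF at -5.12 to FOSL1 at 4.69.

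The genes whose profile over the 6 libraries was most like that of FOSL1 were NR2F2, MB21D1, F2R, PYGL and IGFBP4. Likeness was the Euclidean distance of centred log2 levels among 9572 genes with a mean of at least 10 CPM, and it was 0.15 to 0.269 for these 5. NR2F2, a nuclear receptor, had 256.5 ± 9.6 CPM in shCK5 and 10.24 ± 0.34 CPM in shControl, and F2R, a thrombin receptor, 87.8 ± 3.75 and 3.339 ± 0.316 CPM. For JUN the nearest were SNX19, ABCA2, DUSP3, PHF1 and AP3D1, at distances of 0.0195 to 0.0386. SNX19 had 140.3 ± 1.63 CPM in shCK5 and 72.09 ± 0.804 CPM in shControl (SD, n = 3 each). With 2 groups, such likeness is mostly a shared size of difference between them.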

How the data were processed

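The authors deposited raw read counts per gene name, with no normalization, in 1 table. Per the submitters' processing notes, the tools included STAR, Cufflinks, cutadapt and SAMtools (versions not stated) and the build was GRCh38. Neither the counter nor its strand setting or annotation is stated, so reads of a gene and an overlapping or antisense one are not separable here. Between 63.1% and 65% of counts above 20 were even, and all counts of FOS, JUN and BATF were, so both mates of a fragment may have been counted and counting error is larger than the counts imply.

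Columns were assigned to libraries by name. With edgeR 4.0.16 in R 4.3.3, low rows were removed by filterByExpr and libraries scaled by TMM. Levels are CPM, counts over the TMM-scaled library size, as mean ± SD over 3 libraries. The main test was edgeR's quasi-likelihood test, beside glmTreat against a 2-fold change, both adjusted by Benjamini-Hochberg over 19567 genes at 0.05. A standard error is the log2 fold change divided by the root of the F statistic. RPKM used union exon lengths of GENCODE v29 (GRCh38). Ratios used log2(CPM + 0.01) and exact two-sided permutation tests in SciPy 1.17.1. Of 6 planned ratios, 2 could not be computed because JUNB and FOSB had no count. The script was tested on simulated data in which only a small share of genes changed. Scaling where most genes differ, as here, was not simulated. DESeq2 1.42.0, other scalings, no filter, a replicate block and leaving out each library were alternatives. Chi-square per degree of freedom between libraries of a group was 3.89 to 7.53, so no pair differed by as little as sampling noise.

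The members, gene lists and tests were chosen with earlier results of these data known. Named were all members, the 3 highest and 3 lowest passing genes of each list with at least 1 CPM in a group, the 5 nearest profiles of FOSL1 and JUN, genes starting within 100 kb of FOSL1 or FOS, genes overlapping a member, and KRT5, RB1, SMAD4 and EGFR. Some genes that this rule names are not reported here. Other genes were chosen after their values were seen. The lists were dimer partners and other zipper factors, upstream kinases and factors, other immediate early genes, AP-1 targets, and turnover. The remaining lists were leukocyte, fibroblast and endothelial markers.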

Additional observations from a re-analysis of the deposited data

How the results depend on the processing

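The 7 members that passed the ordinary test kept their direction and stayed past the threshold under all 11 alternatives, which left 5 higher and 2 lower each time. FOS did not pass under any, and its log2 fold change ranged from -0.33 to 0.03, with 0.03 without shControl replicate 2 (edgeR adjusted p = 0.907). Scaling by library size alone put the median over all genes at -0.1559 (log2), against -0.0194 with TMM. There 2 members in place of 1 were lower beyond 2-fold, since JUND passed (-1.15), MAFF no longer passed (0.94), and 8 AP-1 targets in place of 5 were lower. Leaving out single libraries gave 1 to 2 members lower beyond 2-fold and 2 to 3 higher. The ratios and shares kept their direction under every alternative run. The ratio of BATF to BATF3 moved most, with differences of -6.88 to -5.15, and -5.15 was found with a pseudocount of 0.5. FOSL1's share difference spanned 49.09 to 52.67 percentage points. The highest comes from exon lengths free of other genes, an alternative chosen after seeing the data.

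Replicate numbers did not pair the libraries: same-numbered libraries had deviations correlated at -0.0129 to 0.0135 across genes. With the replicate block, FOSL1 had a log2 fold change of 4.70, and 5 members were higher and 2 lower, as without it. With few counts, FOS and BATF in shCK5 are the least precise values.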
